A study of Homo sapiens with 12 samples.

Results

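The mitochondrial ribosomal proteins are described here in HepG2 cells, a human liver cancer line, grown in 4 media. The members were taken by name: every row of the counts table whose gene symbol starts with MRPL or MRPS followed by a number. Of 11546 rows in the table, 10945 carry a symbol, and 75 of these are members. By their place in the ribosome, 48 belong to the large subunit and 25 to the small subunit, with MRPS18A and MRPS30 counted in the large subunit, where they sit despite their names. The other 2 are MRPS36, now known as a subunit of the 2-oxoglutarate dehydrogenase complex, and MRPL20-AS1, an antisense RNA named after MRPL20.

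The study is about iron availability and the fate of hepatocytes, and these libraries compare culture media in wild-type HepG2 cells. Cells were seeded in EMEM with 10% heat-inactivated serum and moved 24 h later to Plasmax, to high-glucose DMEM (HGDMEM), to low-glucose DMEM (LGDMEM) or to EMEM. Fresh medium was given at 48 h, and RNA was taken at 96 h. Plasmax is a medium composed after human plasma, while DMEM and EMEM are classical media, and EMEM is the medium the cells had been seeded in. Each medium has 3 libraries of 3′ RNA-seq (QuantSeq). Whether the 3 came from separate cultures is not stated, so a p-value measures only how these libraries differ among themselves, and that spread may be technical.

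The mitochondrial ribosome translates the few messages of the mitochondrial genome, all of them for membrane subunits of the respiratory chain and the ATP synthase. Its RNAs come from mitochondrial DNA, but all of its proteins are made from nuclear genes in the cytosol and imported. Compared with the bacterial ribosome it carries less RNA and more protein, and many of its proteins have no bacterial counterpart. Promoters of nuclear genes for mitochondrial proteins are known for sites of ETS factors such as GABPA, of NRF1 and of YY1.

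RefSeq promoter windows on GRCh38.p14, from 250 bases before to 50 bases after a gene's start, were matched for 66 members with 82 windows, and 11 members had more than 1 window. They were searched on both strands for 4 short strings: ETS (CCGGAAG), NRF1 (GCATGCG), YY1 (ATGGCGG) and the E-box (CACGTG). The E-box reads the same on both strands, and the NRF1 letters of opposite strands overlap and were counted as 1 place. The windows below belong to members that the results turn on, 4 with lower and 2 with higher levels in Plasmax. Each is written 5′ to 3′ on the strand of the gene, with matches in capitals.
MRPS15: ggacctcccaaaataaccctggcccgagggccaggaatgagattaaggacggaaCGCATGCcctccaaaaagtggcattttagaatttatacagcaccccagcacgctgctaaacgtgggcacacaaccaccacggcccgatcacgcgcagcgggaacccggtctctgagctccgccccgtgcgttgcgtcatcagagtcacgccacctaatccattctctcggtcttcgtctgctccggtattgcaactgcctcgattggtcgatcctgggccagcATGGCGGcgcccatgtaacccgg
MRPL11: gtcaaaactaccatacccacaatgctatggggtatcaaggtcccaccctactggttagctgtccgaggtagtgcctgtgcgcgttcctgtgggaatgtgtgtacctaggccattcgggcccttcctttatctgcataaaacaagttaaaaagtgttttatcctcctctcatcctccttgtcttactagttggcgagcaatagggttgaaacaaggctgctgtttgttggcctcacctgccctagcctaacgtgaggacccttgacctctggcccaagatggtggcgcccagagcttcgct
MRPL17: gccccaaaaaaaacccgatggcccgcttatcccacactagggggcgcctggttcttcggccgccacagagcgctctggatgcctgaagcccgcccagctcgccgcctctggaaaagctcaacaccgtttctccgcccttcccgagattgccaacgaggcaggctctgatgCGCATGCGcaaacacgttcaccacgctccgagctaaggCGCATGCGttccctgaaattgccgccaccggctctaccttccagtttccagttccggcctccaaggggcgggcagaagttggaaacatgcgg
MRPL16: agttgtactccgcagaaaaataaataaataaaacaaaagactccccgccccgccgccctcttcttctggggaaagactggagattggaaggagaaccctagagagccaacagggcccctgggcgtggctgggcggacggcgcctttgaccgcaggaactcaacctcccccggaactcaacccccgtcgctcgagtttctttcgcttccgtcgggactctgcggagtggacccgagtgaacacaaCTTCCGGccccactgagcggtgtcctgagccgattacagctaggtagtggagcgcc
MRPL33: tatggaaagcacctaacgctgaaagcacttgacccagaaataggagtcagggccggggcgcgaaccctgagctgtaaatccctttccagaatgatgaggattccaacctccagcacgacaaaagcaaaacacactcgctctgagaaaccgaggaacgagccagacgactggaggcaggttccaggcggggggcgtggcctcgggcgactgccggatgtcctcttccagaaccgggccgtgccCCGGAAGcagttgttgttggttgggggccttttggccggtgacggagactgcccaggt
MRPS10: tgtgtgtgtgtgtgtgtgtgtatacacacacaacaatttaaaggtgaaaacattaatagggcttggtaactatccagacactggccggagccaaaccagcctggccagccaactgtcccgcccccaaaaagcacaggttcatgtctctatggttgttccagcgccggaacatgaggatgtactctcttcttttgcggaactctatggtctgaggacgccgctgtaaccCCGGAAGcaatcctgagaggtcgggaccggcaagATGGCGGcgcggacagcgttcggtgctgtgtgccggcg
MRPS15 (chr1:36464335-36464634, minus strand) holds 1 NRF1 and 1 YY1 match, and MRPL11 (chr11:66438799-66439098, minus strand) holds none. MRPL17 (chr11:6683291-6683590, minus strand) has NRF1 letters at 2 places. MRPL16 (chr11:59810729-59811028, minus strand) and MRPL33 (chr2:27771469-27771768, plus strand) have 1 ETS match each, and MRPS10 (chr6:42217812-42218111, minus strand) has 1 ETS and 1 YY1 match.

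ETS letters stood in 37.8% of the 82 member windows, against 17.9% of 12372 windows of protein-coding genes in the counts table and 10.3% of all 35116 promoter windows. For YY1 the shares were 28.0%, 10.1% and 5.55%, for NRF1 8.54%, 5.97% and 3.91%, and for the E-box 11.0%, 9.49% and 7.26%. None of the 4 strings was found in 29 member windows. The 16 windows matched to 13 of the members lower in Plasmax in all 3 comparisons held ETS in 25.0%, NRF1 in 12.5%, YY1 in 25.0% and the E-box in 12.5%. In the 47 windows of 38 members that passed the test in no comparison, the shares were 42.6%, 10.6%, 34.0% and 12.8%. The shares are of windows, so a member with more than 1 window counts more than once. A match is a run of letters and not a shown binding site, and these shares carry no test.

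The deposited counts summed to between 4131093 and 6015796 per library. Levels are given as CPM, counts relative to the library total, scaled with TMM factors and not divided by length, since a 3′ library gives about 1 read per transcript. A fold change is given as log2 with its standard error (SE). A gene is called when its adjusted p, from the quasi-likelihood test of edgeR with Benjamini-Hochberg adjustment over all 10945 symbol rows, is under 0.05. All 9 hepatocyte markers were measured. They summed to 12260 to 13850 CPM in Plasmax, against 24340 to 26720 in HGDMEM, 21350 to 23840 in LGDMEM and 22400 to 22940 in EMEM. Their sum was thus lower in the Plasmax libraries. The most abundant markers weigh most in it, and single markers are not given here. Of 6 leukocyte markers 3 were measured, and LYZ made up nearly all of their sum of 1966 to 2193 CPM in Plasmax, 2710 to 3159 in HGDMEM, 2122 to 2885 in LGDMEM and 2657 to 3294 in EMEM. For stromal cells, 2 of 5 markers were measured, with sums of 66.73 to 93.02 CPM in Plasmax, 43.7 to 61.74 in HGDMEM, 21.73 to 50.52 in LGDMEM and 38.11 to 52.8 in EMEM, and none of 4 endothelial markers was measured. On the second principal component of all genes LGDMEM replicate 3 lay at -51.8 and the other 11 libraries at -11 to 14.7, so results are also given without it. The part of these shifts in the results was not tested, and in bulk RNA fewer cells of a kind cannot be told apart from less RNA per cell.

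The summed level of all 75 members, MRPS36 and MRPL20-AS1 included, was lower in Plasmax than in each other medium. It was 5228, 5262 and 5185 CPM in the 3 Plasmax libraries, 6288, 6012 and 6361 CPM in HGDMEM, 6475, 5908 and 6102 CPM in LGDMEM, and 6066, 5659 and 6245 CPM in EMEM. All 3 Plasmax libraries lay below all 9 others. The means were 5225 ± 38.5 CPM in Plasmax, 6221 ± 184 CPM in HGDMEM, 6162 ± 288 CPM in LGDMEM and 5990 ± 300 CPM in EMEM (SD, n = 3 each). Plasmax was thus 16.0% below HGDMEM, 15.2% below LGDMEM and 12.8% below EMEM. The large subunit genes summed to 3139 ± 85.9 CPM in Plasmax, 3853 ± 137 CPM in HGDMEM, 3774 ± 141 CPM in LGDMEM and 3676 ± 134 CPM in EMEM. The small subunit genes summed to 1996 ± 50.6 CPM in Plasmax, 2287 ± 59.5 CPM in HGDMEM, 2317 ± 148 CPM in LGDMEM and 2247 ± 171 CPM in EMEM. The first principal component of the members alone, with 52.3% of their variance, placed the Plasmax libraries at 2.78 to 3.00 and the other 9 at -1.88 to -0.00854.

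**Figure D1:**
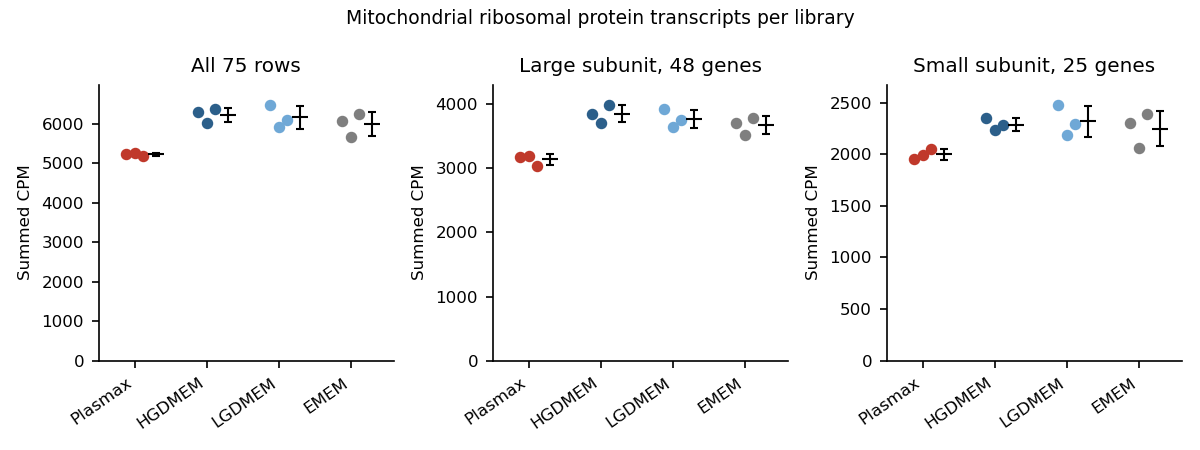
Summed CPM of the members in each library, with the mean and SD of each medium (n = 3). The Plasmax libraries sit between 5185 and 5262 CPM, below every library of the other media.

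Against EMEM, 19 of the 75 members were called lower in Plasmax and 3 higher, or 29.3% called, beside 22.1% of all genes tested. The 25.3% called lower stand beside 12.1% of all genes, and the 4% called higher beside 10%. Against LGDMEM, 18 members were lower and 2 higher (26.7%), beside 21.2% of all genes, with 11.7% lower and 9.48% higher. Against HGDMEM, 22 were lower and 3 higher (33.3%), beside 26.9% of all genes, with 14.1% lower and 12.8% higher. In each comparison the share called lower was above that of all genes and the share called higher was below it. The antisense RNA MRPL20-AS1 is among the higher calls in each comparison. All 3 comparisons use the same Plasmax libraries and are not independent of each other.

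The number of calls moved with single libraries. Without LGDMEM replicate 3, a choice made after seeing the data for comparisons that do not use it, it was 23 against EMEM (24.3% of all genes), 23 against LGDMEM (20.7%) and 31 against HGDMEM (28.9%). Against EMEM it was 13 without EMEM replicate 1 (15.5% of all genes then), and 14 without EMEM replicate 3 (15.9%) or without Plasmax replicate 3 (16.4%). Against LGDMEM it was 11 without LGDMEM replicate 1 (15.8% of all genes). Against HGDMEM it was 16 without HGDMEM replicate 3 (20.6%) and 15 without Plasmax replicate 3 (21.1%). In a test across all 4 media at once, 20 of 75 members passed, beside 22.9% of all genes, and 12 passed without Plasmax replicate 2 or 3 (15.9% and 15.4% of all genes).

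Across all members, called or not, the median log2 fold change was -0.24 in Plasmax against EMEM, -0.34 against LGDMEM and -0.33 against HGDMEM, while over all genes it lay at 0.0151, 0.00153 and 0.0136. The values were below 0 for 53, 57 and 60 of 75 members, beside 48.8%, 49.9% and 49.1% of all genes. The lower Plasmax levels were broad but not universal: in 24 members all 3 Plasmax libraries lay below all 9 others (11.3% of all genes did so), in 3 they lay above (10.9% of all genes). With TMM, RLE, library totals or mitochondrially encoded genes left out of the totals, the members' median stayed between -0.244 and -0.222 against EMEM, -0.348 and -0.319 against LGDMEM, and -0.357 and -0.334 against HGDMEM.

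**Figure D2:**
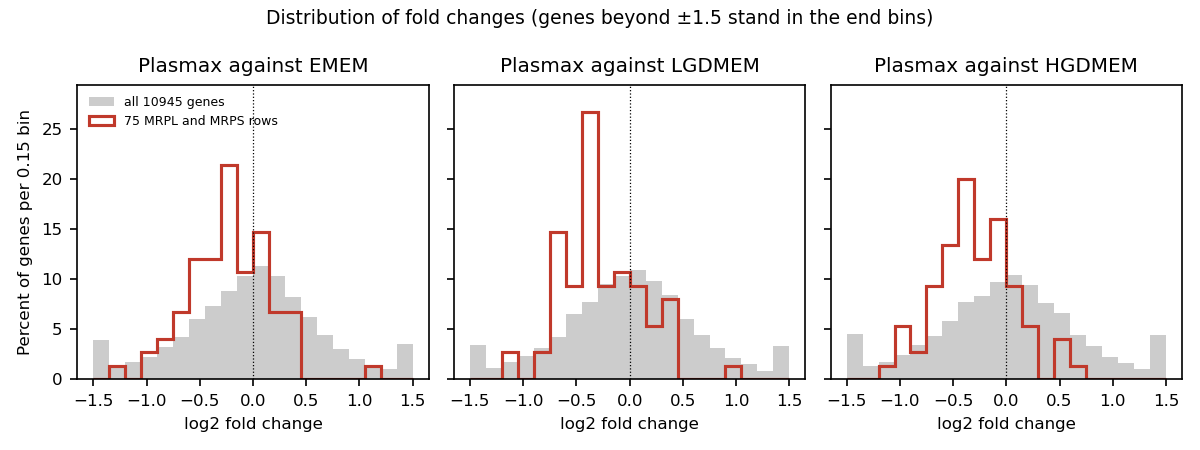
Distribution of log2 fold changes of Plasmax against each of the other media for the members and for all genes tested. The members' medians of -0.33 (HGDMEM), -0.34 (LGDMEM) and -0.24 (EMEM) lie below those of all genes, which are near 0.

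By subunit, 15, 14 and 17 of the 48 large subunit genes were lower against EMEM, LGDMEM and HGDMEM, and 2, 1 and 1 were higher, with median log2 fold changes of -0.26, -0.40 and -0.38. Of the 25 small subunit genes, 4, 4 and 5 were lower and 0, 0 and 1 higher, with medians of -0.18, -0.22 and -0.23. Set beside the 12.1%, 11.7% and 14.1% of all genes called lower, the large subunit had 31.2%, 29.2% and 35.4% and the small subunit 16%, 16% and 20%, which is nearer to all genes. The counts of lower genes moved with single libraries: the large subunit count was 8 against LGDMEM without LGDMEM replicate 1 and 9 without Plasmax replicate 3, and 10 against HGDMEM without Plasmax replicate 3 and 11 without HGDMEM replicate 3. Its 2 higher calls against EMEM (MRPL33 and MRPL34) and 1 against HGDMEM (MRPL10) were each lost when single libraries were left out. In the small subunit the lower count was 1 against EMEM without EMEM replicate 1 or 3 or Plasmax replicate 1 or 2 and 2 without Plasmax replicate 3, 1 against LGDMEM without LGDMEM replicate 1, and 3 against HGDMEM without HGDMEM replicate 3 or Plasmax replicate 1. The share of all genes called in either direction was also lower in several of these settings. Against EMEM it was 15.5%, 15.9% and 16.4% without EMEM replicate 1, EMEM replicate 3 and Plasmax replicate 3, beside 22.1% with every library. Against LGDMEM it was 15.8% without LGDMEM replicate 1, beside 21.2%. Against HGDMEM it was 20.6% without HGDMEM replicate 3 and 21.1% without Plasmax replicate 3, beside 26.9%. The difference between the subunits was not tested.

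In all 3 comparisons, 14 members were called lower in Plasmax, 11 of the large and 3 of the small subunit, beside 8.43% of all genes. Their median log2 fold change was -0.64 against EMEM, -0.67 against LGDMEM and -0.66 against HGDMEM. Of these 14 members, 7 kept all 3 calls in every alternative tried: MRPL3, MRPL11, MRPL13, MRPL14, MRPL19, MRPL57 and MRPS15. The other 7 lost at least 1 call when a single library was left out.

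MRPS15, the counterpart of an early rRNA-binding protein of the bacterial small subunit, had the most negative log2 fold change of the 14 in each comparison. It was at 77.4, 87.0 and 93.0 CPM in Plasmax, 201, 137 and 188 CPM in HGDMEM, 213, 164 and 214 CPM in LGDMEM, and 209, 185 and 205 CPM in EMEM. Every Plasmax library was below every other library. The log2 fold change was -1.22 (SE 0.15, edgeR adjusted p = 2.33e-05) against EMEM, -1.20 (SE 0.15, adjusted p = 2.91e-05) against LGDMEM and -1.03 (SE 0.15, adjusted p = 8.16e-05) against HGDMEM. MRPL11, which forms the base of the stalk where translation factors dock, was at 32.1, 26.5 and 27.3 CPM in Plasmax, 58.7, 56.8 and 50.8 CPM in HGDMEM, 76.0, 53.1 and 60.0 CPM in LGDMEM, and 54.6, 50.0 and 68.2 CPM in EMEM. The groups did not overlap, and the log2 fold changes were -1.01 (SE 0.18, adjusted p = 0.000559), -1.13 (SE 0.18, adjusted p = 0.000198) and -0.95 (SE 0.18, adjusted p = 0.000633) against EMEM, LGDMEM and HGDMEM.

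MRPL13, the counterpart of a bacterial large subunit protein, was at 76.2, 102 and 70.9 CPM in Plasmax, 149, 157 and 137 CPM in HGDMEM, 139, 142 and 110.0 CPM in LGDMEM, and 153, 130.3 and 139.7 CPM in EMEM. Plasmax replicate 2 was the highest of its medium and still below all others, and the log2 fold changes were -0.76 (SE 0.15, edgeR adjusted p = 0.0015) against EMEM, -0.65 (SE 0.15, adjusted p = 0.00505) against LGDMEM and -0.83 (SE 0.15, adjusted p = 0.000531) against HGDMEM. MRPL14 binds the assembly factor MALSU1. Its levels were 42.2, 38.3 and 44.9 CPM in Plasmax, 60.4, 64.4 and 69.4 CPM in HGDMEM, 72.2, 61.9 and 60.7 CPM in LGDMEM, and 63.8, 62.5 and 66.5 CPM in EMEM, with no overlap. The log2 fold changes were close to each other, -0.62 against EMEM (SE 0.14, adjusted p = 0.00452), -0.63 against LGDMEM (SE 0.14, adjusted p = 0.00397) and -0.63 against HGDMEM (SE 0.14, adjusted p = 0.0031).

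MRPL19, another protein with a bacterial counterpart, was at 79.3, 70.9 and 78.3 CPM in Plasmax, 111, 134 and 116 CPM in HGDMEM, 127, 122 and 112 CPM in LGDMEM, and 130.1, 120.2 and 109 CPM in EMEM. No Plasmax library reached the lowest of the others. Its log2 fold change was -0.65 against EMEM (SE 0.13, edgeR adjusted p = 0.0015), -0.66 against LGDMEM (SE 0.13, adjusted p = 0.00142) and -0.66 against HGDMEM (SE 0.13, adjusted p = 0.000995). MRPL3, in which inherited variants are known to cause cardiomyopathy, had the highest mean level of the 14, with 134, 139.5 and 126 CPM in Plasmax, 199.7, 203.4 and 195 CPM in HGDMEM, 174, 199 and 200.4 CPM in LGDMEM, and 195, 172 and 194 CPM in EMEM. Here too the Plasmax libraries stood apart, at -0.49 against EMEM (SE 0.12, adjusted p = 0.00538), -0.52 against LGDMEM (SE 0.12, adjusted p = 0.00359) and -0.58 against HGDMEM (SE 0.12, adjusted p = 0.00113) on the log2 scale.

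MRPL57, a large subunit protein with no bacterial counterpart, was at 77.2, 70.5 and 83.3 CPM in Plasmax, 104, 122 and 146 CPM in HGDMEM, 134, 122 and 114 CPM in LGDMEM, and 125, 104 and 119 CPM in EMEM. The Plasmax libraries were the 3 lowest. The log2 fold changes were -0.59 (SE 0.14, edgeR adjusted p = 0.00632) against EMEM, -0.68 (SE 0.14, adjusted p = 0.00253) against LGDMEM and -0.69 (SE 0.14, adjusted p = 0.0017) against HGDMEM.

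**Figure D3:**
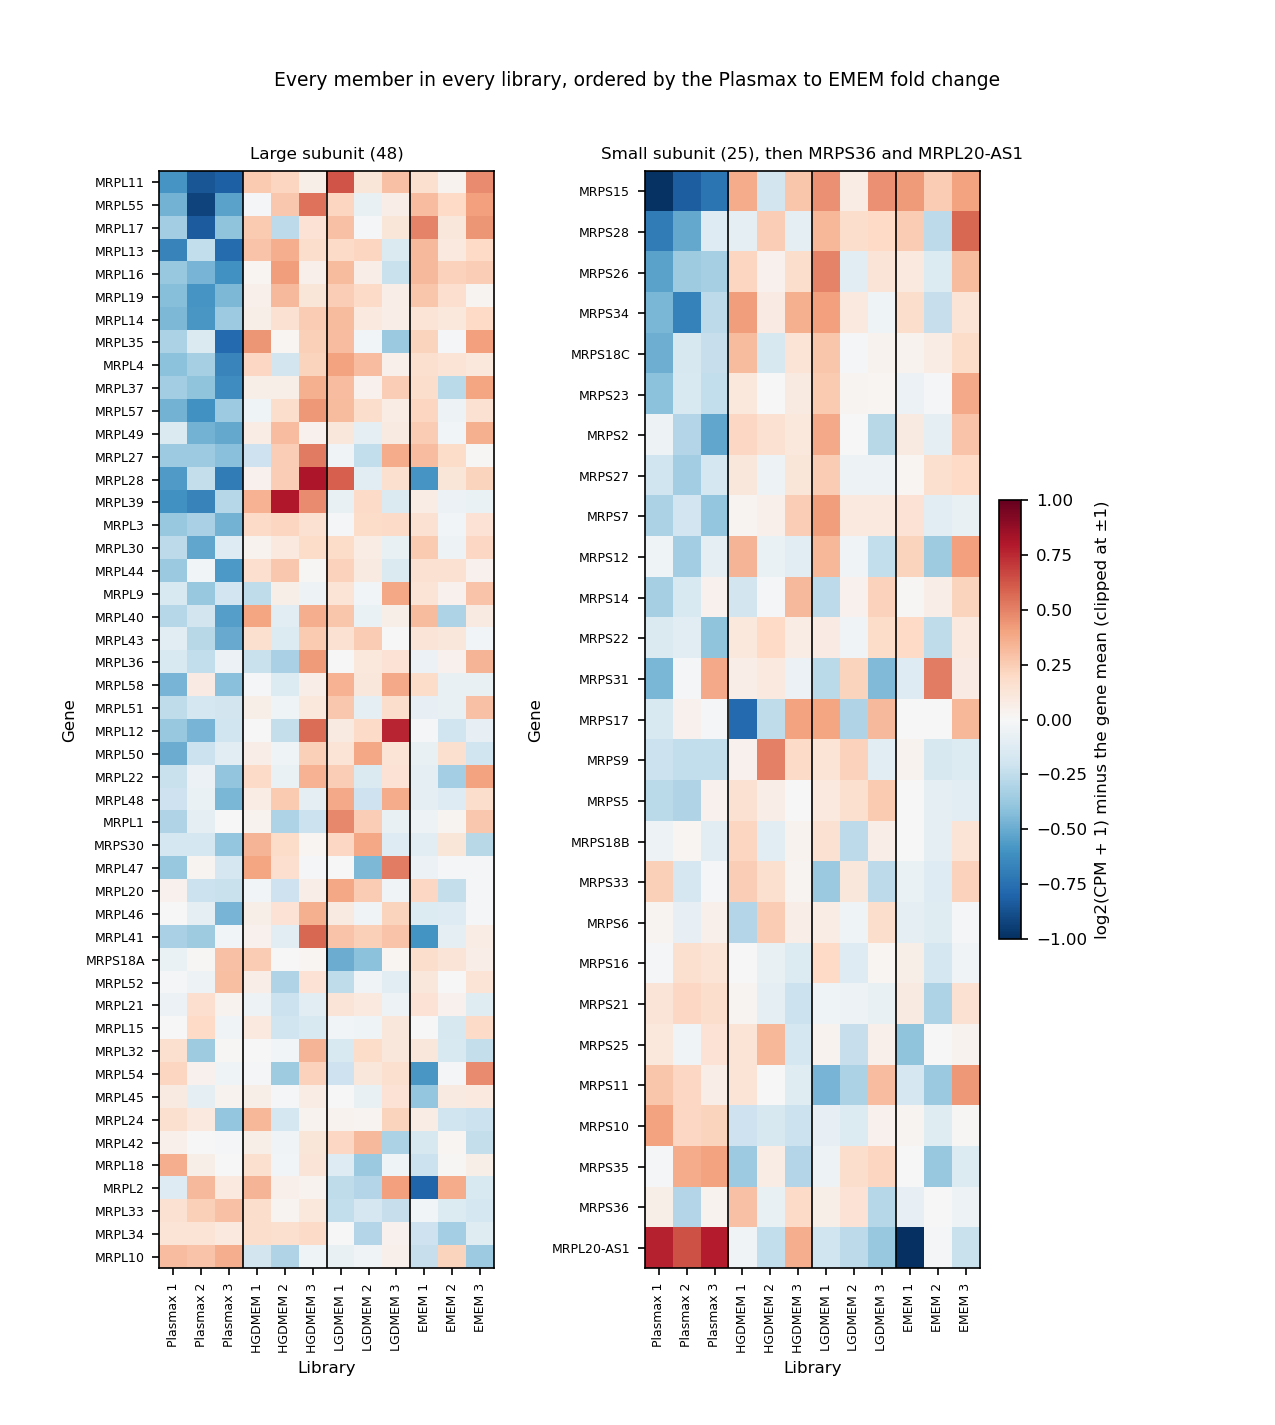
Members' levels in each library as log2(CPM + 1) minus the member's mean, with colours ending at 1 unit either way and the Plasmax libraries first. The 24 members with all Plasmax libraries below all others, such as MRPS15, show as a low block on the left, and MRPL20-AS1 as a high one.

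The 7 members with less stable calls include proteins around the catalytic centre and the tunnel through which the new chain leaves. MRPL16, near the peptidyl transferase centre, was at 59.7, 56.3 and 51.1 CPM in Plasmax, 79.0, 104 and 81.0 CPM in HGDMEM, 97.4, 82.0 and 66.8 CPM in LGDMEM, and 98.1, 92.0 and 92.6 CPM in EMEM. The Plasmax libraries were the lowest, with log2 fold changes of -0.76 against EMEM (SE 0.16, edgeR adjusted p = 0.00218), -0.56 against LGDMEM (SE 0.16, adjusted p = 0.0173) and -0.66 against HGDMEM (SE 0.16, adjusted p = 0.00439). Without LGDMEM replicate 1 or Plasmax replicate 3 the LGDMEM call was lost (adjusted p = 0.0924 and 0.0712). MRPL17 is the counterpart of a bacterial protein near the tunnel exit. It was at 27.0, 19.0 and 25.8 CPM in Plasmax, 41.6, 28.6 and 38.3 CPM in HGDMEM, 42.7, 34.2 and 37.6 CPM in LGDMEM, and 49.0, 37.4 and 47.3 CPM in EMEM. HGDMEM replicate 2 was the closest to Plasmax, with no overlap. On the log2 scale this was -0.90 against EMEM (SE 0.20, adjusted p = 0.00377), -0.67 against LGDMEM (SE 0.20, adjusted p = 0.0237) and -0.60 against HGDMEM (SE 0.20, adjusted p = 0.0354). The LGDMEM call was lost without LGDMEM replicate 1 (adjusted p = 0.0857) or Plasmax replicate 2 (0.112), and the HGDMEM call without HGDMEM replicate 1 (0.142) or 3 (0.1) or Plasmax replicate 2 (0.154) or 3 (0.0549).

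MRPL4, which reaches into the tunnel wall, was at 48.2, 51.0 and 40.3 CPM in Plasmax, 74.5, 56.6 and 75.5 CPM in HGDMEM, 85.6, 79.8 and 66.6 CPM in LGDMEM, and 72.1, 70.8 and 69.2 CPM in EMEM. The groups did not overlap, and the log2 fold changes were -0.60 against EMEM (SE 0.16, edgeR adjusted p = 0.0104), -0.73 against LGDMEM (SE 0.16, adjusted p = 0.00288) and -0.56 against HGDMEM (SE 0.16, adjusted p = 0.0126). Without Plasmax replicate 3 the calls against EMEM (adjusted p = 0.0536) and HGDMEM (0.0632) were lost, and the HGDMEM call was also lost without HGDMEM replicate 1 (0.0557) or 3 (0.0586). MRPL55, the counterpart of a bacterial large subunit protein, had the lowest mean level of the 14, with 17.5, 12.5 and 16.7 CPM in Plasmax, 24.4, 29.96 and 36.4 CPM in HGDMEM, 28.8, 23.4 and 25.8 CPM in LGDMEM, and 30.8, 28.5 and 33.0 CPM in EMEM. No library of the other media was as low as any of Plasmax. Its log2 fold change was -0.98 against EMEM (SE 0.21, adjusted p = 0.00265), -0.74 against LGDMEM (SE 0.21, adjusted p = 0.0184) and -0.96 against HGDMEM (SE 0.21, adjusted p = 0.00241), and the LGDMEM call was lost without LGDMEM replicate 1 (0.0675) or Plasmax replicate 2 (0.0863).

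MRPL37 has no bacterial counterpart. It was at 34.4, 33.2 and 28.3 CPM in Plasmax, 46.1, 46.0 and 56.7 CPM in HGDMEM, 55.0, 45.4 and 52.5 CPM in LGDMEM, and 50.0, 36.5 and 58.5 CPM in EMEM, where replicate 2 came within a few CPM of Plasmax. The log2 fold change was -0.59 (SE 0.19, edgeR adjusted p = 0.0291) against EMEM, -0.67 (SE 0.19, adjusted p = 0.0154) against LGDMEM and -0.63 (SE 0.19, adjusted p = 0.0171) against HGDMEM. Each of its calls was lost without Plasmax replicate 3 (adjusted p = 0.107 against EMEM, 0.0674 against LGDMEM and 0.072 against HGDMEM). Other single libraries whose loss ended a call were EMEM replicate 1 (0.0819) and 3 (0.156) and Plasmax replicate 2 (0.0618) against EMEM, LGDMEM replicate 1 (0.0514) and HGDMEM replicate 3 (0.0823), and limma voom gave 0.0508 against EMEM.

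Of the small subunit, MRPS34, in which inherited variants cause Leigh syndrome, was at 85.1, 73.2 and 97.4 CPM in Plasmax, 157, 124 and 150.4 CPM in HGDMEM, 156, 125 and 114 CPM in LGDMEM, and 133, 99.7 and 129 CPM in EMEM. It was closest to Plasmax in EMEM replicate 2. The log2 fold changes were -0.50 (SE 0.16, edgeR adjusted p = 0.032) against EMEM, -0.63 (SE 0.16, adjusted p = 0.00908) against LGDMEM and -0.75 (SE 0.16, adjusted p = 0.00181) against HGDMEM. The EMEM call was lost without EMEM replicate 1 (0.124) or 3 (0.108) or Plasmax replicate 1 (0.0786) or 2 (0.139), and the LGDMEM call without LGDMEM replicate 1 (0.0515) or Plasmax replicate 2 (0.053). MRPS26, with no bacterial counterpart, was at 48.2, 54.6 and 55.4 CPM in Plasmax, 81.4, 72.5 and 79.5 CPM in HGDMEM, 99.2, 64.7 and 76.8 CPM in LGDMEM, and 75.2, 63.7 and 87.7 CPM in EMEM. It was at -0.52 (SE 0.17, adjusted p = 0.0328), -0.60 (SE 0.17, adjusted p = 0.0153) and -0.56 (SE 0.17, adjusted p = 0.0182) against EMEM, LGDMEM and HGDMEM. Its EMEM call was lost without EMEM replicate 1 (0.0752) or 3 (0.154) or any of Plasmax replicates 1 (0.114), 2 (0.0669) and 3 (0.0606), its LGDMEM call without LGDMEM replicate 1 (0.0959) or Plasmax replicate 1 (0.0647), and its HGDMEM call without HGDMEM replicate 1 (0.0603) or 3 (0.0526) or Plasmax replicate 1 (0.074).

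**Figure D4:**
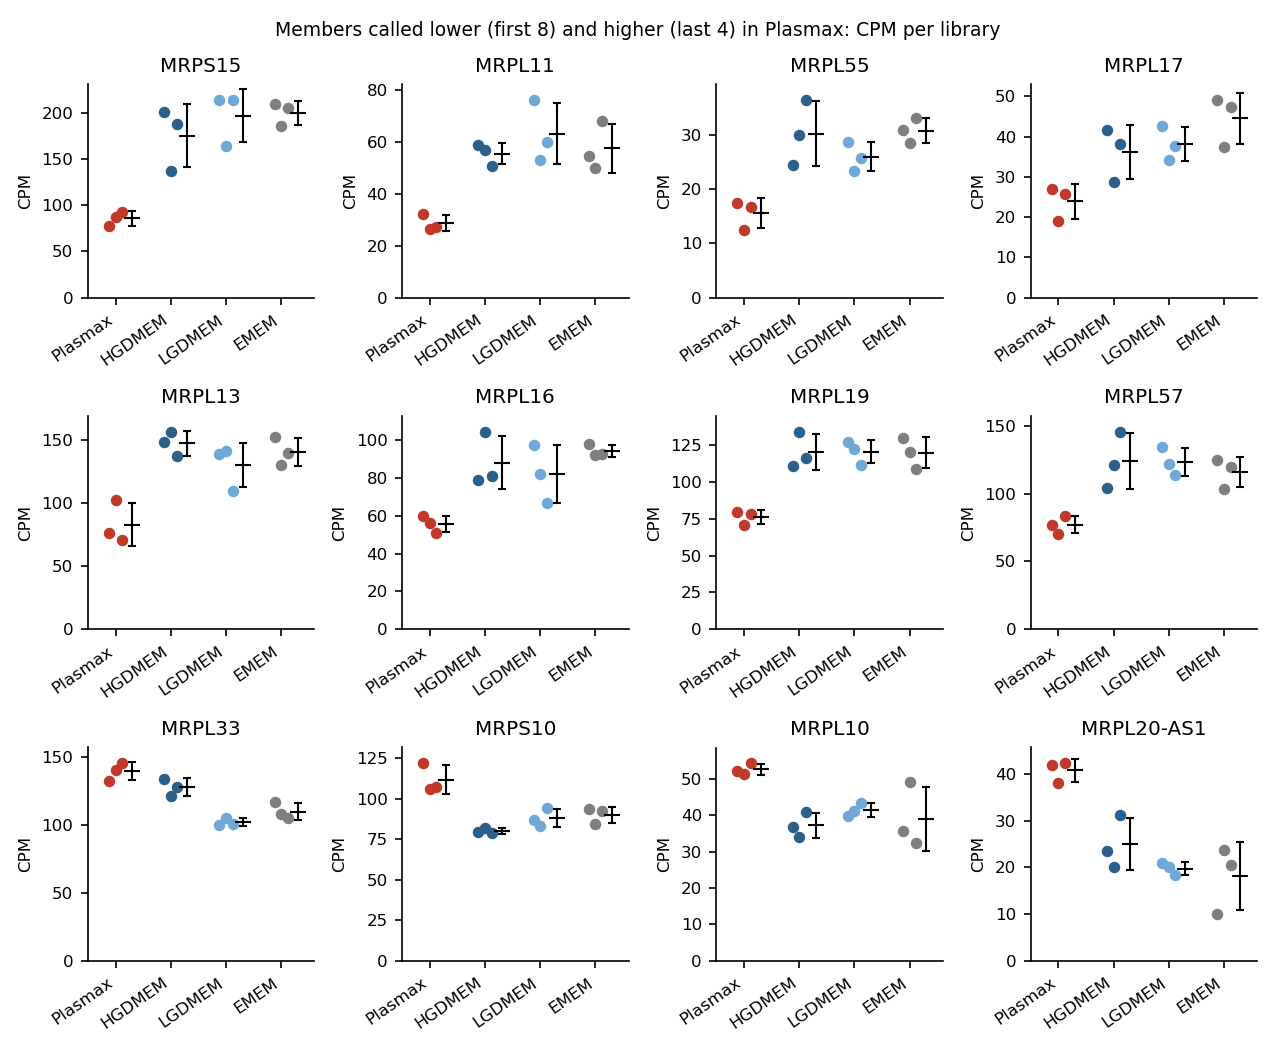
CPM in each library for members named in the text, with the mean and SD of each medium (n = 3). MRPS15, for example, is at 77.4 to 93.0 CPM in Plasmax and at 137 CPM or more in every other library.

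A further 13 members were lower in 1 or 2 of the 3 comparisons: MRPL12, MRPL27, MRPL30, MRPL35, MRPL39, MRPL40, MRPL43, MRPL44, MRPL49, MRPL58, MRPS7, MRPS9 and MRPS27. Of their 17 calls, 15 were lost in at least 1 alternative, mostly when 1 library was left out, and the other 2 were MRPL49 against EMEM and MRPL39 against HGDMEM. All 13 had a log2 fold change below 0 in each comparison, from -0.61 to -0.15 against EMEM, -0.75 to -0.30 against LGDMEM and -1.12 to -0.22 against HGDMEM. The medians were -0.39, -0.43 and -0.50.

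MRPL39, a large subunit protein related to threonyl-tRNA synthetase, was at 11.7, 11.2 and 14.9 CPM in Plasmax, 23.6, 32.8 and 25.8 CPM in HGDMEM, 17.4, 21.0 and 16.5 CPM in LGDMEM, and 19.4, 17.6 and 17.5 CPM in EMEM. Plasmax was lowest and HGDMEM highest, with no overlap of either with the rest. Only the contrast with HGDMEM passed, at -1.12 (SE 0.22, edgeR adjusted p = 0.00105), beside -0.53 (SE 0.23, adjusted p = 0.105) against EMEM and -0.54 (SE 0.23, adjusted p = 0.0974) against LGDMEM. MRPL49 was at 95.0, 75.4 and 73.2 CPM in Plasmax, 111, 129.9 and 108 CPM in HGDMEM, 114, 98.5 and 111 CPM in LGDMEM, and 125, 103 and 135 CPM in EMEM. It was lower against EMEM, at -0.57 (SE 0.15, adjusted p = 0.00866), and against HGDMEM, at -0.52 (SE 0.15, adjusted p = 0.0131), a call lost without HGDMEM replicate 2 or Plasmax replicate 2 or 3 (adjusted p = 0.0578 to 0.0635). Against LGDMEM it was at -0.41 (adjusted p = 0.055).

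MRPL12, the stalk protein that binds translation factors, was at 17.9, 16.9 and 20.5 CPM in Plasmax, 23.6, 19.9 and 35.3 CPM in HGDMEM, 25.2, 27.1 and 40.8 CPM in LGDMEM, and 23.3, 20.5 and 22.3 CPM in EMEM. LGDMEM replicate 3 was the highest, and without it the LGDMEM call, -0.75 (SE 0.24, edgeR adjusted p = 0.032), was lost (0.16). It was also lost without Plasmax replicate 1 (0.0835), 2 (0.101) or 3 (0.0518). MRPL58, a release factor-like enzyme that frees stalled chains, was at 46.3, 68.1 and 48.0 CPM in Plasmax, 64.0, 58.6 and 67.5 CPM in HGDMEM, 82.0, 69.8 and 83.8 CPM in LGDMEM, and 73.3, 61.2 and 61.0 CPM in EMEM. Plasmax replicate 2 lay within the other media. The LGDMEM contrast passed, at -0.53 (SE 0.17, adjusted p = 0.0265), and was lost without LGDMEM replicate 1 or 3 or Plasmax replicate 1 or 3 (0.0615 to 0.117) and with the compared media alone (0.0609). MRPS9 was at -0.50 against HGDMEM (SE 0.14, adjusted p = 0.0121), lost without HGDMEM replicate 2 (0.0776).

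The remaining 8 of these members had smaller or less stable calls. MRPL35, with a bacterial counterpart, was at -0.61 (SE 0.20, edgeR adjusted p = 0.0325) against EMEM and -0.64 (SE 0.20, adjusted p = 0.0223) against HGDMEM, and was lost without EMEM replicate 1 or 3 or Plasmax replicate 1 or 3 (0.0635 to 0.152) and without HGDMEM replicate 1 or 3 or Plasmax replicate 3 (0.0528 to 0.116). MRPL27, likewise of bacterial type, was at -0.56 (adjusted p = 0.0338) against EMEM and -0.60 (0.0195) against HGDMEM, and was lost without EMEM replicate 1 or 2 or any Plasmax replicate (0.072 to 0.123) and without HGDMEM replicate 3 or Plasmax replicate 2 or 3 (0.0507 to 0.127). MRPS7, of the head of the small subunit, was at -0.51 (0.0107) against LGDMEM, lost without LGDMEM replicate 1 (0.0607), and at -0.41 (0.0295) against HGDMEM, lost without HGDMEM replicate 3 or Plasmax replicate 1 or 3 (0.0771 to 0.125). Against HGDMEM alone, MRPL40 was at -0.58 (0.0303), lost without HGDMEM replicate 1 or 3 or Plasmax replicate 1 or 3 (0.063 to 0.124). MRPL44, a relative of ribonuclease III, was at -0.46 (0.0285), lost without HGDMEM replicate 1 or 2 or Plasmax replicate 1 or 3 (0.0703 to 0.14). Against LGDMEM, MRPL43 was at -0.44 (0.043), lost without LGDMEM replicate 1 or 2 or Plasmax replicate 2 or 3 (0.0878 to 0.169), with the compared media alone (0.076) and with library totals (0.0515). Against EMEM, MRPL30 was at -0.44 (0.0424), lost without EMEM replicate 1 or 3 or Plasmax replicate 1 or 2 (0.0825 to 0.171), with the compared media alone (0.0505) and with library totals (0.0586). MRPS27 was at -0.37 (0.041) against EMEM, lost without any 1 of the 6 libraries (0.0515 to 0.141) and with library totals (0.0541).

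In 5 members a call was higher in Plasmax, and MRPL20-AS1 was higher in all 3 comparisons, beside 5.83% of all genes. It was at 42.0, 38.1 and 42.4 CPM in Plasmax, 23.6, 20.2 and 31.3 CPM in HGDMEM, 20.9, 20.1 and 18.3 CPM in LGDMEM, and 9.95, 23.9 and 20.6 CPM in EMEM. Every Plasmax library was above every other one, and EMEM replicate 1 was lowest. The log2 fold change was 1.16 (SE 0.26, edgeR adjusted p = 0.00325) against EMEM, 1.04 (SE 0.26, adjusted p = 0.00665) against LGDMEM and 0.71 (SE 0.25, adjusted p = 0.0423) against HGDMEM. The HGDMEM call was lost without HGDMEM replicate 1 (0.115) or 2 (0.163) or Plasmax replicate 1 (0.0975), 2 (0.0671) or 3 (0.103). The name of this RNA is not in GENCODE v29, and its overlap with MRPL20 was not measured here. The counting strand is not given in the sources used here, so reads from any overlap may have been counted for either gene. MRPL20 itself was at 61.4, 51.4 and 50.9 CPM in Plasmax, 58.5, 51.5 and 62.6 CPM in HGDMEM, 78.5, 71.4 and 58.2 CPM in LGDMEM, and 68.9, 50.4 and 59.3 CPM in EMEM, and passed no test.

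MRPS10, of the head of the small subunit, was at 122, 106 and 107 CPM in Plasmax, 79.3, 81.9 and 78.7 CPM in HGDMEM, 86.6, 83.3 and 94.2 CPM in LGDMEM, and 93.4, 84.4 and 92.1 CPM in EMEM. All Plasmax libraries were above the rest. The contrast with HGDMEM passed, at 0.48 (SE 0.12, edgeR adjusted p = 0.00778), here and in every alternative tried, while those with EMEM (0.31, adjusted p = 0.0812) and LGDMEM (0.34, adjusted p = 0.0581) did not. MRPL33, with a bacterial counterpart, was at 132, 140.3 and 145 CPM in Plasmax, 134, 121 and 128 CPM in HGDMEM, 99.7, 105 and 101 CPM in LGDMEM, and 117, 108 and 105 CPM in EMEM. Plasmax was above LGDMEM and EMEM but overlapped HGDMEM. It was at 0.34 (SE 0.12, adjusted p = 0.0414) against EMEM and 0.45 (SE 0.12, adjusted p = 0.0103) against LGDMEM, and at 0.13 (adjusted p = 0.461) against HGDMEM. The LGDMEM call was kept in every alternative tried, while the EMEM call was lost when any 1 of the 6 libraries compared was left out (0.0568 to 0.132).

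MRPL10, which anchors MRPL12 to the stalk, was at 52.3, 51.4 and 54.4 CPM in Plasmax, 36.9, 33.9 and 40.8 CPM in HGDMEM, 39.9, 41.1 and 43.5 CPM in LGDMEM, and 35.7, 49.1 and 32.4 CPM in EMEM. It was thus highest in Plasmax in every library, with a log2 fold change of 0.50 (SE 0.17, edgeR adjusted p = 0.039) against HGDMEM, 0.43 (adjusted p = 0.0872) against EMEM and 0.34 (adjusted p = 0.175) against LGDMEM. MRPL34, another bacterial-type protein, was at 198.1, 198.5 and 193.3 CPM in Plasmax, 203.3, 202 and 206 CPM in HGDMEM, 181, 147 and 186 CPM in LGDMEM, and 156, 142 and 166 CPM in EMEM. Plasmax and HGDMEM lay close together, above EMEM. It passed against EMEM, at 0.35 (SE 0.12, adjusted p = 0.0453), and not against LGDMEM (0.20, adjusted p = 0.257) or HGDMEM (-0.05, adjusted p = 0.798). The call of MRPL10 against HGDMEM and that of MRPL34 against EMEM were each lost when any 1 of the 6 libraries compared was left out, with adjusted p of 0.051 to 0.134 and 0.0582 to 0.149.

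The other 43 members passed in no comparison with Plasmax. Their log2 fold changes ran from -0.70 to 0.44 against EMEM, -0.86 to 0.38 against LGDMEM and -1.03 to 0.45 against HGDMEM, with medians of -0.08, -0.17 and -0.12. Over all members and libraries, the mean level ran from 6.32 CPM for MRPL28 to 210.2 CPM for MRPS21, with a median of 65.3 CPM beside 22.6 CPM over all genes. MRPS21, the counterpart of a small bacterial protein, was at 228, 242 and 237 CPM in Plasmax, 213, 195 and 179.8 CPM in HGDMEM, 203.2, 202 and 198 CPM in LGDMEM, and 223, 169 and 233 CPM in EMEM, with overlap of Plasmax and EMEM and no call. MRPL28 was at 3.71, 4.93 and 3.31 CPM in Plasmax, 6.19, 7.28 and 11.2 CPM in HGDMEM, 9.59, 5.50 and 6.79 CPM in LGDMEM, and 3.64, 6.59 and 7.15 CPM in EMEM. Its -1.03 against HGDMEM (edgeR adjusted p = 0.0743) was the most negative of those that did not pass. MRPL54 averaged 10.9 CPM and MRPL2 11.65 CPM over all libraries, the next lowest levels. MRPS36, the dehydrogenase subunit, was at -0.01, -0.04 and -0.20 against EMEM, LGDMEM and HGDMEM, and passed in none.

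MRPS6, MRPS16, MRPS18C and MRPS25 hold iron-sulphur clusters in the mitochondrial ribosome. None of the 4 was called in the comparisons with Plasmax by edgeR, DESeq2 or limma voom, and at an unadjusted p under 0.05 there was 1 lower, MRPS18C, and 0 higher in each, where 18%, 17.9% and 19.2% of all genes were lower at that p against EMEM, LGDMEM and HGDMEM. MRPS18C was at 42.4, 53.3 and 50.9 CPM in Plasmax, 74.8, 53.3 and 66.0 CPM in HGDMEM, 72.7, 59.2 and 61.1 CPM in LGDMEM, and 61.2, 62.8 and 67.9 CPM in EMEM. The log2 fold change was -0.39 (edgeR adjusted p = 0.093) against EMEM, -0.40 (0.091) against LGDMEM and -0.40 (0.0708) against HGDMEM, and without HGDMEM replicate 2 the last was -0.53 (adjusted p = 0.031) and passed. The other 3 lay between -0.07 and 0.18. Its relatives MRPS18A and MRPS18B also passed in none, and MRPS18A, which is the large subunit one, was at 23.5, 24.8 and 30.4 CPM in Plasmax, 29.6, 24.7 and 25.0 CPM in HGDMEM, 17.2, 18.3 and 24.9 CPM in LGDMEM, and 27.9, 27.1 and 25.9 CPM in EMEM.

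Among the 3 media other than Plasmax, no member was called by edgeR, DESeq2 or limma voom. Of all genes, 0.064% were called in HGDMEM against LGDMEM, 0.164% in HGDMEM against EMEM and 0.0731% in LGDMEM against EMEM. At an unadjusted p under 0.05 there were 3 higher and 1 lower, 3 higher and 0 lower, and 1 higher and 0 lower members, while 7.86%, 7.58% and 7.91% of all genes passed that limit. The smallest p values belonged to MRPL33 in HGDMEM against LGDMEM, at 0.32 (SE 0.12, edgeR adjusted p = 0.468), to MRPL34 in HGDMEM against EMEM, at 0.40 (SE 0.12, adjusted p = 0.324), and to MRPL41 in LGDMEM against EMEM, at 0.45 (SE 0.21, adjusted p = 0.599).

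Other mitochondrial gene groups, fixed as lists with earlier results known, were counted beside all genes, of which 12.1%, 11.7% and 14.1% were called lower and 10%, 9.48% and 12.8% higher in Plasmax against EMEM, LGDMEM and HGDMEM. Of 78 nuclear genes for respiratory chain complexes, 18, 18 and 25 were lower in Plasmax against EMEM, LGDMEM and HGDMEM, and 2, 1 and 1 higher, with medians of -0.15, -0.18 and -0.20. The shares called lower were 23.1%, 23.1% and 32.1%, above those of all genes. Without Plasmax replicate 2 the count lower against EMEM was 11. NDUFC1, a complex I subunit, was at 101, 109 and 80.8 CPM in Plasmax, 204, 226 and 207 CPM in HGDMEM, 199.9, 216 and 207 CPM in LGDMEM, and 178, 187 and 133 CPM in EMEM. It fell by 0.78 on the log2 scale against EMEM (edgeR adjusted p = 0.00085), by 1.10 against LGDMEM (3.61e-05) and by 1.13 against HGDMEM (1.76e-05). Of 13 mitochondrially encoded messages, which the mitochondrial ribosome translates, 0, 1 and 1 were lower and 3, 5 and 7 higher, with medians of 0.28, 0.36 and 0.35. The shares called higher were 23.1%, 38.5% and 53.8%. Their mean share of all CPM was 13.4% in Plasmax, 10.8% in HGDMEM, 11% in LGDMEM and 11.5% in EMEM. Single libraries summed to 123700 to 139600 CPM in Plasmax, 99660 to 117800 in HGDMEM, 101500 to 123500 in LGDMEM and 101800 to 124200 in EMEM. The sums of Plasmax and EMEM thus overlapped, and LGDMEM came close to Plasmax. ND1, of complex I, was higher by 0.75, 0.78 and 0.78 (adjusted p = 0.000746, 0.000585 and 0.000395), and COX1, of complex IV, by 0.54, 0.54 and 0.57 (0.0028, 0.00276 and 0.0014). Without LGDMEM replicate 3, 6 were higher against EMEM, and without LGDMEM replicate 1, 8 against LGDMEM. The single lower call was ND4L, at -0.44 (adjusted p = 0.0392) against LGDMEM and -0.49 (0.0183) against HGDMEM, and it was lost against LGDMEM without LGDMEM replicate 1 or Plasmax replicate 1 or 3 and against HGDMEM without HGDMEM replicate 1 or 3 or Plasmax replicate 1.

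**Figure D5:**
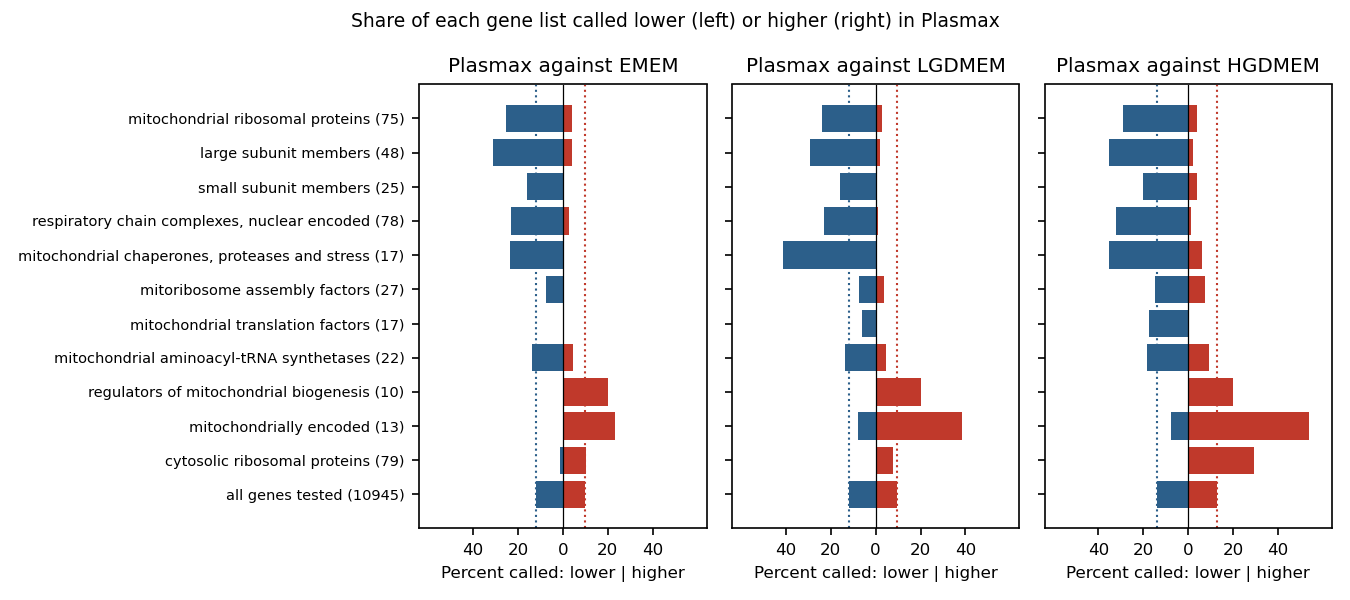
Share of each gene list called lower or higher in Plasmax against each other medium, with the share of all genes. Lower calls prevail among the members and the nuclear respiratory chain genes, and higher calls among the mitochondrially encoded messages.

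Of 27 assembly factors of the mitochondrial ribosome, 2, 2 and 4 were lower and 0, 1 and 2 higher. The 7.41%, 7.41% and 14.8% called lower and the 0%, 3.7% and 7.41% called higher lay below or near the 12.1%, 11.7% and 14.1% lower and 10%, 9.48% and 12.8% higher of all genes. Leaving out 1 library gave 1 to 3 lower against EMEM, 1 to 4 against LGDMEM and 2 to 5 against HGDMEM. The higher call against LGDMEM, NGRN, was lost with the compared media alone (edgeR adjusted p = 0.0644) and without LGDMEM replicate 1 or 2 or any Plasmax replicate (0.0503 to 0.139). Both higher calls against HGDMEM, NGRN and METTL15, were lost without HGDMEM replicate 1 or 3 or Plasmax replicate 1 or 3. RCC1L, of large subunit assembly, was at 47.6, 71.3 and 48.4 CPM in Plasmax, 90.2, 107 and 85.9 CPM in HGDMEM, 91.9, 89.8 and 87.4 CPM in LGDMEM, and 97.6, 87.8 and 98.2 CPM in EMEM, with no overlap. It fell by 0.76 on the log2 scale against EMEM (SE 0.16, edgeR adjusted p = 0.00229), by 0.68 against LGDMEM (0.00493) and by 0.76 against HGDMEM (0.00166). ERAL1, a chaperone of the small subunit rRNA, was at 7.42, 10.8 and 10.5 CPM in Plasmax, 50.1, 22.8 and 30.5 CPM in HGDMEM, 22.0, 22.6 and 15.2 CPM in LGDMEM, and 18.4, 21.7 and 15.1 CPM in EMEM. HGDMEM replicate 1 was by far the highest. Its call against HGDMEM, -1.84 (adjusted p = 0.000139), was kept in every alternative. Its call against LGDMEM, -1.05 (0.0159), was lost without LGDMEM replicate 2 or Plasmax replicate 1 (0.0565 and 0.0716). Its call against EMEM, -0.94 (0.0278), was lost without EMEM replicate 1 (0.0641) or 2 (0.101) or Plasmax replicate 1 (0.109) or 3 (0.0536), and with limma voom (0.0703).

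Of 22 genes for charging mitochondrial tRNAs, 3, 3 and 4 were lower and 1, 1 and 2 higher. Most are synthetases, but the list also holds GATB, GATC and QRSL1, subunits of an amidotransferase that acts on a charged tRNA. The 13.6%, 13.6% and 18.2% called lower were near the 12.1%, 11.7% and 14.1% of all genes, and the 4.55%, 4.55% and 9.09% called higher were below the 10%, 9.48% and 12.8% of all genes. The higher count was 2 against EMEM without EMEM replicate 1 or 2, and 1 against HGDMEM without HGDMEM replicate 2 or Plasmax replicate 1 or 3. LARS2, for leucine, was at 26.4, 18.8 and 23.6 CPM in Plasmax, 45.2, 56.9 and 51.0 CPM in HGDMEM, 55.0, 45.6 and 45.3 CPM in LGDMEM, and 39.6, 40.2 and 44.2 CPM in EMEM. It fell by 0.85 on the log2 scale against EMEM (SE 0.18, edgeR adjusted p = 0.00229), by 1.09 against LGDMEM (0.000314) and by 1.16 against HGDMEM (0.000108). GARS, which serves cytosol and mitochondria, went the other way, with 234, 240.4 and 212 CPM in Plasmax, 102, 96.0 and 103 CPM in HGDMEM, 79.8, 138 and 143 CPM in LGDMEM, and 78.4, 142 and 96.3 CPM in EMEM. It was higher by 1.11 against EMEM (adjusted p = 0.000763), 0.93 against LGDMEM (0.0032) and 1.19 against HGDMEM (0.000301). Among 10 regulators of mitochondrial biogenesis 0 were lower and 2 higher in each comparison, PPARGC1A and YY1, which is 20% of a short list. The coactivator PPARGC1A was at 34.0, 33.9 and 32.9 CPM in Plasmax, 12.6, 10.6 and 13.3 CPM in HGDMEM, 10.6, 17.1 and 19.5 CPM in LGDMEM, and 15.8, 9.08 and 10.1 CPM in EMEM, higher by 1.54 (SE 0.26, adjusted p = 0.000408), 1.09 (0.00517) and 1.47 (0.00039) against EMEM, LGDMEM and HGDMEM. YY1, a transcription factor, was at 75.0, 59.5 and 59.9 CPM in Plasmax, 39.6, 40.6 and 42.9 CPM in HGDMEM, 41.1, 49.7 and 39.2 CPM in LGDMEM, and 38.8, 52.0 and 43.3 CPM in EMEM, with all Plasmax libraries highest. It was higher by 0.53 (adjusted p = 0.0282), 0.58 (0.0192) and 0.66 (0.00665), but the EMEM call was lost without EMEM replicate 1 (0.12) or 3 (0.0864) or Plasmax replicate 1 (0.131), and the LGDMEM call without LGDMEM replicate 1 (0.0592) or 3 (0.0587) or Plasmax replicate 1 (0.0962). NRF1, GABPA, ESRRA and MYC passed in none, and no regulator was lower by edgeR, DESeq2, limma voom or at an unadjusted p under 0.05.

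Of 17 translation factors measured, 0, 1 and 3 were lower in Plasmax against EMEM, LGDMEM and HGDMEM. These are 0%, 5.88% and 17.6%, beside 12.1%, 11.7% and 14.1% of all genes. The 0 against EMEM by edgeR stands beside 1 by DESeq2, 0 by limma voom and 2 at an unadjusted p under 0.05, and it was 2 without EMEM replicate 2 and 1 without LGDMEM replicate 3. Against LGDMEM the count was 0 without LGDMEM replicate 1 or Plasmax replicate 1 or 3, and against HGDMEM it was 1 without HGDMEM replicate 3 or Plasmax replicate 1. None of 14 genes of mitochondrial transcription and genome maintenance, TFAM among them, was called in any of the 3 comparisons by edgeR, and DESeq2 and limma voom each called 1 lower against HGDMEM. At an unadjusted p under 0.05, 1, 0 and 2 were higher and 0, 1 and 2 lower, and against HGDMEM 1 was called lower without LGDMEM replicate 3 or Plasmax replicate 1 or 2 and 1 higher without Plasmax replicate 2. Against LGDMEM 1 was called lower without Plasmax replicate 2.

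Ribosomal proteins of the cytosol, which build the other ribosome of the cell, were measured in 79 rows, and RPS27 was the symbol of more than 1 row. Of the 79 rows, 1, 0 and 0 were lower in Plasmax against EMEM, LGDMEM and HGDMEM, and 8, 6 and 23 higher. The 10.1% and 7.59% called higher against EMEM and LGDMEM were near or below the 10% and 9.48% of all genes, and the 29.1% against HGDMEM stands beside 12.8%. The 1.27%, 0% and 0% called lower stand beside 12.1%, 11.7% and 14.1%. The 0 lower calls by edgeR against LGDMEM and HGDMEM stand beside 0 by DESeq2 and 1 by limma voom in each, and 1 at an unadjusted p under 0.05 in each. RPS18 was higher by 0.67, 0.70 and 0.92 on the log2 scale (edgeR adjusted p = 0.00114, 0.000778 and 4.31e-05). The number higher against EMEM was 5 without EMEM replicate 2 or Plasmax replicate 1 or 2. Against LGDMEM it was 3 without LGDMEM replicate 2 or Plasmax replicate 1, and 16 without LGDMEM replicate 3. Against HGDMEM it was 13 without HGDMEM replicate 2 and 14 without Plasmax replicate 1. A list of 17 genes joined mitochondrial chaperones and proteases with the stress transcription factors ATF4, ATF5 and DDIT3. Of these 17 genes, 4, 7 and 6 were lower and 0, 0 and 1 higher, or 23.5%, 41.2% and 35.3% lower. Against LGDMEM 2 were called at least 2-fold lower, and the lowest log2 fold change of the list was -1.48. How many of the lower calls belong to the stress factors is not given here. Without Plasmax, 1 of the 17 genes, not named here, was called lower in HGDMEM against LGDMEM, where 0.064% of all genes were called. Against HGDMEM 3 were lower without HGDMEM replicate 1 or 3 and 2 without Plasmax replicate 2. The higher call, CLPX, was lost without HGDMEM replicate 1 or 3 or Plasmax replicate 1 or 2 (edgeR adjusted p = 0.0589 to 0.152). HSPE1, the small partner of the chaperonin HSPD1, fell by 0.56, 0.53 and 0.64 (adjusted p = 0.0019, 0.00291 and 0.000415).

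Properties of the genes limit how single members can be read. By name, 33 of the 75 members have pseudogenes, among them 4 of the 14 lower in all comparisons (MRPL3, MRPL37, MRPL57 and MRPS15), and how the authors' counting treated reads shared with them is not given in the sources used here. By whole gene spans, introns included, a gene on the opposite strand overlaps 35 members, and 18 overlap one on the same strand. Whether the parts covered by 3′ reads overlap was not examined, so it is not known whether reads of such pairs were assigned to either.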

How the data were processed

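The members and gene lists were chosen with earlier results of these data known. The authors deposited a table of raw counts per gene for 12 libraries. Per the submitters' processing notes, the tools were STAR 2.7.5b, featureCounts 1.6.3, cutadapt 1.16, FastQC 0.72 and limma 3.40.6 and the builds hg19 and GRCh37, with no roles given. Each row had a third-highest CPM of at least 2.51, so low genes had been removed before deposit. Rows without a symbol (601, 2.92% to 3.71% of counts) were left out. The test was edgeR's, version 4.0.16 under R 4.3.3 (quasi-likelihood, TMM, all 12 libraries, medium as the only term, 8 residual degrees of freedom), with Benjamini-Hochberg adjustment over 10945 rows and a threshold of 0.05. The low-count filter of edgeR removed 0 members. A prior count of 2 was used for log2 CPM. DESeq2 1.42.0 and limma voom (limma 3.58.1) were alternatives, beside other scalings, a mean of at least 5 CPM, the 2 media alone, a replicate block and leaving out single libraries. Counting error falls with depth, and the lowest member count in a library was 15.

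Named were, per comparison with Plasmax, up to 10 called members without overlap in each direction. Also named were the 3 highest and 3 lowest levels, the stalk proteins, the MRPS18 relatives, the iron-sulphur holders, antisense RNAs, and, without Plasmax, the member with the smallest p. Up to 3 called genes per other list were eligible, and of these a few were named. Other members called at least once, and genes outside the rule, were named after their values were seen. MRPL53 was not analysed here. Same-numbered libraries were checked for pairing over 4366 genes with log2 CPM above 5. The correlation of deviations exceeded 0.1 for every number in HGDMEM and EMEM (0.186, 0.11 and 0.124) and in HGDMEM and LGDMEM (0.246, 0.165 and 0.21), so those numbers were taken to pair. For the other pairs of media this did not hold. On data simulated for Plasmax against EMEM over 10863 genes, the test recovered 72% of genes set 1 log2 unit higher, 52% of those set 1 lower and 100% of those 2 away, with 5.81% false among the calls.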

Additional observations from a re-analysis of the deposited data

How the results depend on the processing

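Of 67 member calls in comparisons with Plasmax, 34 were kept in every alternative, 33 were lost in at least 1 and 0 reversed. Leaving out single libraries moved the number of members called the most. Against EMEM, with 22.1% of all genes called when every library was used, it ranged from 13 to 23. It was 13 without EMEM replicate 1 (15.5% of all genes then), and 14 without EMEM replicate 3 (15.9%) or Plasmax replicate 3 (16.4%). Against LGDMEM (21.2% of all genes with every library) it ranged from 11 to 23, with 11 without LGDMEM replicate 1 (15.8%). Against HGDMEM (26.9%) it ranged from 15 to 31, with 16 without HGDMEM replicate 3 (20.6%) and 15 without Plasmax replicate 3 (21.1%). In the test over the 4 media (22.9%) it ranged from 12 to 26, with 12 without Plasmax replicate 2 (15.9%) or 3 (15.4%). At these low counts the share of all genes called was lower too. Fewer libraries were fitted when 1 was left out, and no other cause was tested. The 8 other settings gave 20 to 23 against EMEM, 18 to 24 against LGDMEM and 25 to 29 against HGDMEM, and 7 gave 21 to 24 over the 4 media. Shares of all genes called in these other settings are not given here. No member was called among HGDMEM, LGDMEM and EMEM in any setting run. With the replicate block, 23, 23 and 28 members were called against EMEM, LGDMEM and HGDMEM and 0 in each of the other 3 comparisons, so the pairing moved no count by over 1.5 times. MRPS18A, which passed no test, was at -0.039 against EMEM, and from -0.16 (without Plasmax replicate 3) to 0.034 (without Plasmax replicate 1) with 1 library left out, a change of sign whose cause was not tested. With 3 libraries per medium, changes can be missed. In the simulation, where 50 genes were changed at each size, not all changes of 1 log2 unit were recovered. Smaller changes were not simulated, and far more genes were called in these libraries than were changed there. The simulation therefore does not say how often changes in the members were missed.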
